A study of Mus musculus with 12 samples.

Results

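The genes described here are the 10 AP-1 and immediate early genes Fos, Fosb, Fosl1, Fosl2, Jun, Junb, Jund, Atf3, Egr1 and Ier2. They were found by symbol among the 28427 rows of the gene table, each had exactly 1 row, and all 10 passed the filter on low counts, which kept 13951 genes. The row of Junb also carries a second symbol, AK006748. The genes were followed in RNA sequencing libraries of C57BL/6 mouse mammary epithelial cells in 4 groups of 3 libraries: spheroids at 96 h, monolayers at 96 h, spheroids at 48 h and monolayers at 48 h. Spheroids grew inside growth factor-reduced Matrigel, a gel of basement membrane proteins, and monolayers grew on a collagen coat. Every group received progesterone and prolactin in the medium, which the gels had renewed after 48 h. The matrix went with the format, so that collagen or Matrigel and the shape of the culture cannot be told apart. Renewal of the medium is stated here for the gels only, and its part in the 96 h results was not tested. The replicates are called biological, but nothing used here says whether they came from separate animals, so p-values measure the spread between these cultures.

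AP-1 is a dimer of bZIP proteins that binds the TRE, a short DNA element named after phorbol ester. Jun proteins pair with each other or with Fos proteins, whereas Fos proteins need a partner, and the make-up of the dimer sets its stability and its activity. Fos, Jun, Egr1 and Ier2 are immediate early genes, which are transcribed within minutes of a growth factor, stress or adhesion signal without new protein synthesis, through the ERK, JNK and p38 kinase cascades and serum response factor. Many of their transcripts are short-lived, so a library taken days after plating does not show the first burst after plating. Whether a level was maintained or arose later, as at renewal of the medium or at harvest, was not tested. In mammary epithelium AP-1 is known for its part in proliferation, matrix remodelling and involution.

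Library totals lay between 7674105 and 13554497 counts, so that 3 counts stood for 0.221 to 0.391 CPM, the counts scaled to library size with TMM factors. The 10 genes held 28 to 3669 counts each per library. The first principal component of all tested genes held 58.5% of the variance and separated the formats. Epithelial markers (7 genes) summed to 6689 to 6994 CPM in 96 h spheroids and 4242 to 4561 CPM in 96 h monolayers, and to 7208 to 7692 CPM in 48 h spheroids and 9768 to 11255 CPM in 48 h monolayers. At 96 h 6 of the 7 rose in spheroids and none fell. At 48 h 3 rose (Krt5, Krt14 and Krt19) and 4 fell (Epcam, Cdh1, Krt8 and Krt18), so the sum hides opposite changes. Fibroblast markers (8 genes) summed to 681 to 737 CPM in 96 h spheroids and 1766 to 2424 CPM in 96 h monolayers, and to 1992 to 2254 CPM in 48 h spheroids and 7785 to 8557 CPM in 48 h monolayers. At 96 h, 6 of the 8 fibroblast markers fell and 1 rose (Col3a1) in spheroids, and at 48 h 5 fell and 2 rose (Dcn and Pdgfra). Most of the sum in 48 h monolayers was Col1a1 (3773 to 4156 CPM) and Col1a2 (2886 to 3184 CPM), so this sum hides opposite changes too. Endothelial markers (6 genes) summed to 6.23 to 7.65 CPM in 96 h spheroids and 64.9 to 67.8 CPM in 96 h monolayers, and to 26.5 to 37.0 CPM in 48 h spheroids and 39.6 to 54.6 CPM in 48 h monolayers. All 6 fell in spheroids at 96 h (median log2 fold change -3.32), and at 48 h 3 fell and 1 rose. Immune markers (7 genes, 3 of them tested) summed to 7.95 to 9.70 CPM in 96 h spheroids and 29.8 to 41.1 CPM in 96 h monolayers, and to at most 17.7 CPM at 48 h. At 96 h 2 of the 3 tested fell in spheroids. Most of the sum in 96 h monolayers was Cd68, at 20.1 to 30.0 CPM, beside 3.59 to 5.76 CPM in 96 h spheroids. Ptprc and Adgre1, which were not tested, reached at most 0.0799 and 0.264 CPM in 96 h monolayers. The T cell marker Cd3e was at 0 in 8 of the 12 libraries, among them all 96 h monolayers. The part of these marker differences in the results below was not tested. Replicate 3 of the 48 h monolayers stood apart from its group: chi-square values per degree of freedom between replicates were 17.2 and 9.21 for its pairs and 2.41 to 6.54 for all other pairs. Without it 10 of the 10 genes were called at 96 h and 9 at 48 h between formats. Results for single genes whose call or sign turns on it are given with and without it. Some list counts also moved without it and are given only with it. In bulk RNA, fewer cells of a type cannot be told apart from less RNA per cell.

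Promoter sequences bear on these genes because several of them are known to be controlled by each other's products. RefSeq (GRCm38.p6, another build than the mm9 of the counts) held promoters for 7 of the 10, namely Atf3, Fos, Fosb, Fosl2, Jun, Junb and Jund. The 250 bases before each start site were searched on both strands for the cAMP response element TGACGTCA, its core TGACG, the TRE TGANTCA, the TRE variant TGACATCA, the MEF2 element (the second run of capitals in the Jun stretch) and the CArG box of serum response factor, and on the gene's strand for TATAAA. The core TGACG lies within TGACGTCA, so a full element counts for each. Stretches of the 5 promoters that held a match are shown 5′ to 3′ on the gene's strand, with matches in capitals.
Fos, chr12:85473800-85473889, plus strand: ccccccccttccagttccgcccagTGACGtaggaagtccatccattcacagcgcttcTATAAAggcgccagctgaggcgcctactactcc
Fosb, chr7:19310046-19310135, minus strand: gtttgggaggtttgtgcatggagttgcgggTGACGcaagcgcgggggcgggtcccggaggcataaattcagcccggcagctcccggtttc
Jun, chr4:95052223-95052312, minus strand: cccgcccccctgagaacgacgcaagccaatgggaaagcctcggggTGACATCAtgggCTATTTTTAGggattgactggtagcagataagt
Junb, chr8:84978749-84978878, minus strand: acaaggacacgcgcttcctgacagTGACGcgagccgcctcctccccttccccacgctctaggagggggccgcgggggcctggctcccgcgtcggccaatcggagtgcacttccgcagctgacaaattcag
Atf3, chr1:191183334-191183423, minus strand: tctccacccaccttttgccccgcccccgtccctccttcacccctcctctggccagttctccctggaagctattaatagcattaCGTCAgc

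In the Fos stretch a TGACG began 66 bases before the start site (position -66) and a TATAAA at -33, and a second TGACG at -129 lies outside the stretch shown. TGACG began at -60 in Fosb and at -106 in Junb, and its reverse complement at -7 in Atf3. TGACG was present in 17.8% of the 32851 windows of the same length. In Jun, the TGACATCA at -45, the kind of site that dimers of Jun with ATF2 are known to bind, stood 4 bases upstream of a MEF2 element at -33. TGACATCA was found in 2.93% of all windows, the MEF2 element in 0.103% and TATAAA in 7.59%. The Fosl2 and Jund windows held none of these letters, and none of the 7 windows held TGACGTCA (1.55% of all windows), TGANTCA (6.75%) or a CArG box (1.47%). Bases further upstream were not searched, so a CArG box or other match there would be missed. The matches describe letters only, and binding was not measured.

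At 96 h all 10 genes differed between formats, where 73.8% of the tested genes did, so the count is read against a high background. Fos, Jund, Egr1 and Ier2 were higher in spheroids and Fosb, Fosl1, Fosl2, Jun, Junb and Atf3 were lower, 4 and 6 genes, where 37.3% of all tested genes were higher and 36.5% lower. The groups overlapped for none of the 10, and they did not overlap for 78.9% of all tested genes. At 48 h 7 of the 10 differed (57.9% of all tested genes), with Fos, Fosl1 and Egr1 higher and Fosb, Jun, Junb and Atf3 lower. The higher calls made up 31.6% of all tested genes there and the lower calls 26.4%. Between formats, the median log2 fold change of the 10 genes was -0.28 at 96 h and 0.03 at 48 h, beside 0.00 and 0.05 over all tested genes. Both contrasts come from the quasi-likelihood F test of edgeR, with p-values adjusted by Benjamini-Hochberg over all tested genes and a threshold of 0.05. Rose, fell and changed are used only of what passed it.

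**Figure D1:**
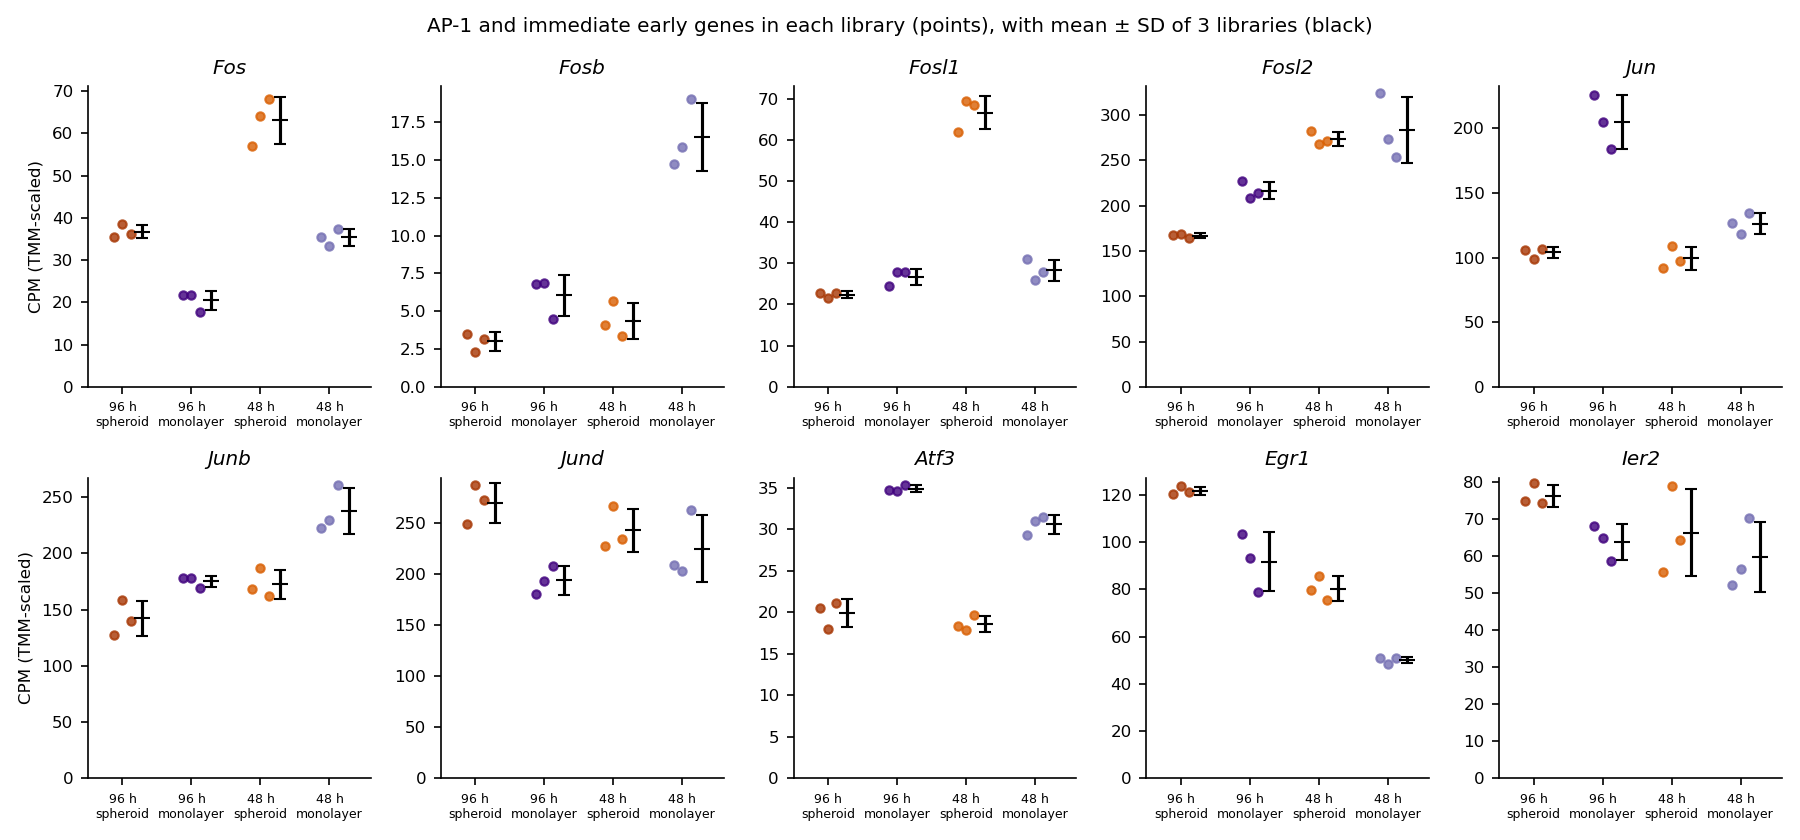
Levels of the 10 genes in CPM in each of the 12 libraries (points, 1 panel per gene, vertical axes starting at 0), with the mean and SD of 3 libraries in black. Fosl1 stood at 61.9 to 69.3 CPM in 48 h spheroids and at 21.5 to 31.1 CPM in the other 9 libraries, and Jun was highest in the 96 h monolayers.

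Fos, the short-lived partner of Jun that gives the family its name, was measured at 35.5, 38.5 and 36.3 CPM in 96 h spheroids, against 21.7, 21.8 and 17.8 CPM in 96 h monolayers. At 48 h it was measured at 57.0, 64.1 and 68.1 CPM in spheroids and 35.4, 33.2 and 37.5 CPM in monolayers. Every spheroid library thus lay above every monolayer library of its time, and the 96 h spheroids overlapped with the 48 h monolayers. Fos was 1.80-fold higher in spheroids at 96 h (log2 fold change 0.85 ± 0.09, SE; adjusted p = 1.73e-07 by edgeR) and 1.78-fold higher at 48 h (0.83 ± 0.09; adjusted p = 1.26e-07). The difference between these changes was 0.02 on the log2 scale (95% interval -0.23 to 0.26; adjusted p = 0.925 by edgeR). Its sign turned under other scalings and without replicate 3 of the 48 h monolayers (-0.03). Fos also fell with time in each format, by 0.78 ± 0.08 on the log2 scale in spheroids and by 0.79 ± 0.10 in monolayers.

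Fosb, a relative of Fos with its own transactivation domain, was the least abundant of the 10 genes. It stood at 3.51, 2.30 and 3.19 CPM in 96 h spheroids and 6.79, 6.88 and 4.49 CPM in 96 h monolayers, and at 4.07, 5.67 and 3.34 CPM in 48 h spheroids and 14.7, 15.8 and 19.0 CPM in 48 h monolayers. It ran opposite to Fos between formats, 1.99-fold lower in spheroids at 96 h (log2 fold change -0.99 ± 0.22; adjusted p = 0.000598 by edgeR) and 3.81-fold lower at 48 h (-1.93 ± 0.20; adjusted p = 1.09e-07). In monolayers it was 2.75-fold lower at 96 h than at 48 h (adjusted p = 2.01e-06 by edgeR). In spheroids the 96 h and 48 h libraries overlapped, and the change with time did not pass (-0.52, 95% interval -0.99 to -0.05; adjusted p = 0.0942 by edgeR). The interaction, the format change at 96 h minus that at 48 h, was 0.94 ± 0.30 (adjusted p = 0.0151 by edgeR), and 0.82 without replicate 1 of the 96 h spheroids, where the call was lost (adjusted p = 0.0505).

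Fosl1, which encodes Fra-1, a Fos protein that lacks the transactivation domain of Fos and is known for migration and invasion, turned round with time. It was measured at 22.8, 21.5 and 22.8 CPM in 96 h spheroids, against 24.5, 27.8 and 27.9 CPM in 96 h monolayers. At 48 h the values were 61.9, 69.3 and 68.4 CPM in spheroids, against 31.1, 25.9 and 27.8 CPM in monolayers. The 48 h spheroids stood alone, and the other groups lay close to each other. Fosl1 was 1.19-fold lower in spheroids at 96 h (log2 fold change -0.25 ± 0.09; adjusted p = 0.0156 by edgeR), a call that was lost without replicate 3 of the 96 h monolayers (-0.21, adjusted p = 0.0727) or replicate 2 of the spheroids of that time (-0.22, adjusted p = 0.0633). At 48 h it was 2.36-fold higher in spheroids (1.24 ± 0.08; adjusted p = 2.59e-10 by edgeR). The interaction was -1.49 ± 0.12 (adjusted p = 9.56e-09 by edgeR). In spheroids Fosl1 was 2.97-fold lower at 96 h than at 48 h (-1.57 ± 0.08), while in monolayers the change with time was -0.08 (95% interval -0.25 to 0.09; adjusted p = 0.447 by edgeR).

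Fosl2, which encodes Fra-2, was the most abundant Fos family gene in length-scaled units in each group. Its levels were 167, 169 and 164 CPM in 96 h spheroids and 227, 208 and 214 CPM in 96 h monolayers, and 282, 267 and 271 CPM in 48 h spheroids and 324, 273 and 253 CPM in 48 h monolayers. The formats overlapped at 48 h only. Fosl2 was 1.30-fold lower in spheroids at 96 h (log2 fold change -0.38 ± 0.08; adjusted p = 0.000257 by edgeR). At 48 h the change was -0.05 (95% interval -0.20 to 0.10; adjusted p = 0.596 by edgeR), and its sign was positive under total-count scaling (0.06). The interaction passed at -0.33 ± 0.11 (adjusted p = 0.0172 by edgeR). With time Fosl2 was 1.64-fold lower in spheroids and 1.31-fold lower in monolayers.

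Jun, the founding Jun protein and the target of the JNK kinases, was measured at 106, 99.3 and 107 CPM in 96 h spheroids, against 226, 205 and 184 CPM in 96 h monolayers. At 48 h it was measured at 92.1, 109 and 97.2 CPM in spheroids and 126, 118 and 134 CPM in monolayers. The spheroid libraries of both times covered one range, and the monolayer libraries lay above it at each time. Jun was 1.97-fold lower in spheroids at 96 h (log2 fold change -0.98 ± 0.08; adjusted p = 3.05e-09 by edgeR) and 1.27-fold lower at 48 h (-0.34 ± 0.08; adjusted p = 0.0015). The interaction was -0.64 ± 0.11 (adjusted p = 0.000148 by edgeR). Jun was 1.63-fold higher at 96 h than at 48 h in monolayers (0.70 ± 0.08), and the change with time in spheroids was 0.07 (95% interval -0.10 to 0.23; adjusted p = 0.561 by edgeR).

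Junb, a Jun protein that can restrain Jun and is known as a brake on proliferation, stood at 128, 159 and 139.7 CPM in 96 h spheroids and 178, 178 and 169 CPM in 96 h monolayers. At 48 h it stood at 169, 187 and 162 CPM in spheroids and 222, 229.5 and 261 CPM in monolayers, so at each time the monolayers were higher without overlap. It was 1.23-fold lower in spheroids at 96 h (log2 fold change -0.30 ± 0.08; adjusted p = 0.00311 by edgeR) and 1.38-fold lower at 48 h (-0.46 ± 0.08; adjusted p = 0.000102). With time it was 1.36-fold lower in monolayers (adjusted p = 0.000165 by edgeR) and 1.21-fold lower in spheroids (adjusted p = 0.0118). The spheroid call was lost when replicate 2 at 48 h (-0.22, adjusted p = 0.0787) or replicate 1 at 96 h (-0.20, adjusted p = 0.0881) was left out. The interaction of Junb was 0.16 (adjusted p = 0.264 by edgeR), and its sign turned under total-count scaling.

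Jund, the most constitutively expressed Jun gene in many tissues, was measured at 249, 288 and 272 CPM in 96 h spheroids and 180.2, 193 and 208 CPM in 96 h monolayers. At 48 h it was measured at 228, 267 and 235 CPM in spheroids and 209, 203 and 263 CPM in monolayers, where the groups overlapped. It was 1.39-fold higher in spheroids at 96 h (log2 fold change 0.47 ± 0.09; adjusted p = 0.000181 by edgeR), and 0.11 on the log2 scale at 48 h (95% interval -0.07 to 0.30; adjusted p = 0.325). Without replicate 3 of the 48 h monolayers, the highest library of its group, the 48 h change passed at 0.23 (adjusted p = 0.0168 by edgeR), as it did with total-count scaling (0.22, adjusted p = 0.0399) and with limma on log2(FPKM + 1) (0.22, adjusted p = 0.0476). Within each format its change with time did not pass, at 0.15 in spheroids (adjusted p = 0.219 by edgeR) and -0.21 in monolayers (adjusted p = 0.0581). The monolayer change passed in 7 of 21 alternatives (adjusted p from 0.0183 to 0.759). The interaction of 0.36 ± 0.13 passed (adjusted p = 0.0283 by edgeR), but did so in only 9 of 20 alternatives (adjusted p from 0.00429 to 0.283), and without replicate 3 of the 48 h monolayers it was 0.24 (adjusted p = 0.0663).

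Atf3, a stress-induced bZIP factor that pairs with Jun proteins and often represses its targets, stood at 20.6, 17.9 and 21.1 CPM in 96 h spheroids and 34.7, 34.5 and 35.3 CPM in 96 h monolayers, and at 18.3, 17.8 and 19.7 CPM in 48 h spheroids and 29.3, 31.0 and 31.5 CPM in 48 h monolayers. All 6 spheroid libraries lay below all 6 monolayer libraries. Atf3 was 1.75-fold lower in spheroids at 96 h (log2 fold change -0.81 ± 0.08; adjusted p = 4.8e-08 by edgeR) and 1.64-fold lower at 48 h (-0.72 ± 0.09; adjusted p = 8.73e-07). The change with time was 0.09 in spheroids (adjusted p = 0.422 by edgeR) and 0.19 in monolayers (adjusted p = 0.0464). The call in monolayers was made in only 7 of 21 alternatives (adjusted p from 0.000648 to 0.147). The interaction of Atf3 did not pass (-0.09, adjusted p = 0.523 by edgeR). It passed with total-count scaling (-0.28, adjusted p = 0.0494) and with limma on log2(FPKM + 1) (-0.28, adjusted p = 0.0252).

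Egr1, a zinc finger factor switched on through ERK and serum response factor, was measured at 120.3, 124 and 121 CPM in 96 h spheroids and 103, 93.2 and 78.7 CPM in 96 h monolayers. At 48 h it was measured at 79.7, 85.8 and 75.3 CPM in spheroids and 51.0, 48.6 and 51.0 CPM in monolayers. It was higher in spheroids at each time, 1.33-fold at 96 h (log2 fold change 0.41 ± 0.08; adjusted p = 0.000162 by edgeR) and 1.60-fold at 48 h (0.68 ± 0.09; adjusted p = 1.79e-06). It rose with time as well, 1.52-fold in spheroids and 1.83-fold in monolayers, so that its course in time ran opposite to that of Fos in each format. The interaction did not pass (-0.27, 95% interval -0.50 to -0.04; adjusted p = 0.0588 by edgeR), but did so in 5 of 20 alternatives, among them total-count scaling (-0.46, adjusted p = 0.00398) and leaving out replicate 3 of the 96 h monolayers (-0.36, adjusted p = 0.00563).

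Ier2, which encodes a small nuclear protein induced early by growth factors, had the smallest range of changes. It stood at 74.9, 79.8 and 74.4 CPM in 96 h spheroids and 68.2, 64.8 and 58.7 CPM in 96 h monolayers, and at 55.8, 79.0 and 64.3 CPM in 48 h spheroids and 52.3, 56.6 and 70.4 CPM in 48 h monolayers. Of its 5 tests, the format change at 96 h passed, at 1.19-fold higher in spheroids (log2 fold change 0.26 ± 0.11; adjusted p = 0.0446 by edgeR), and it did so in only 9 of 21 alternatives (adjusted p from 0.00203 to 0.198). At 48 h the libraries overlapped and the change was 0.15 (95% interval -0.08 to 0.37; adjusted p = 0.285 by edgeR), and it passed without replicate 3 of the 48 h monolayers (0.27, adjusted p = 0.0322). With time it was 0.21 on the log2 scale in spheroids (adjusted p = 0.153 by edgeR), or 0.35 (adjusted p = 0.0198) with replicate 2 of the 48 h spheroids left out. In monolayers it was 0.10 (adjusted p = 0.477 by edgeR), or 0.27 with total-count scaling (adjusted p = 0.0433), and the interaction was 0.11 (adjusted p = 0.58), with a sign that turned under total-count scaling and without replicate 3 of the 48 h monolayers (-0.02).

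Between 96 h and 48 h, 5 of the 10 genes changed in spheroids (39.8% of all tested genes) and 7 in monolayers (61.3% of all tested genes). In spheroids Egr1 rose and Fos, Fosl1, Fosl2 and Junb fell, beside 19.3% of all tested genes higher and 20.5% lower. In monolayers Jun, Atf3 and Egr1 rose and Fos, Fosb, Fosl2 and Junb fell, beside 30.1% higher and 31.3% lower. The median log2 change with time over the 10 genes was -0.11 in spheroids and -0.15 in monolayers, and 0.01 over all tested genes in each format. The interaction passed for 5 of the 10 (53.3% of all tested genes), with Fosb and Jund positive and Fosl1, Fosl2 and Jun negative, beside 26.9% positive and 26.4% negative over all tested genes. These contrasts share libraries with each other, so their agreement over genes is not counted as a result.

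**Figure D2:**
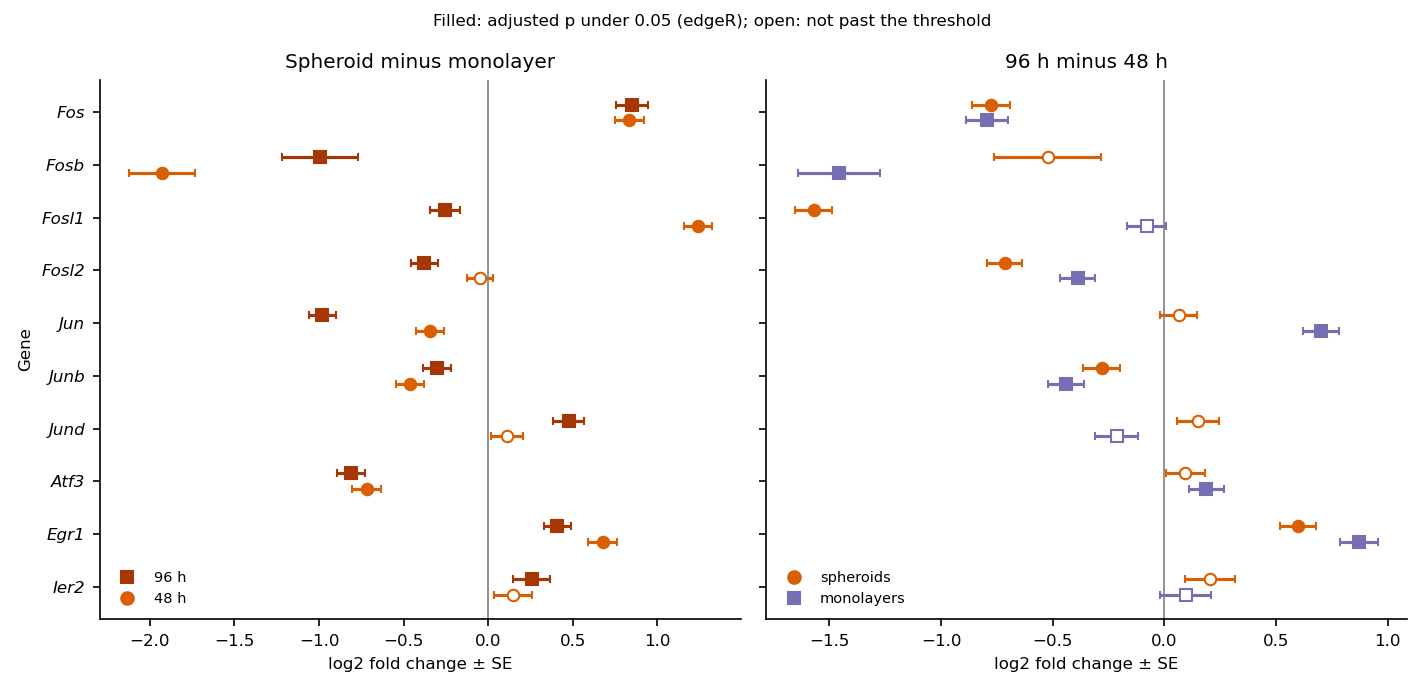
Log2 fold changes with their SE for the 10 genes, spheroid minus monolayer at each time (left) and 96 h minus 48 h in each format (right), filled where the adjusted p was under 0.05. Fosl1 lies at -0.25 at 96 h and 1.24 at 48 h between formats, and Fos lies at 0.85 and 0.83.

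Levels of different genes were compared in FPKM, which scales counts by gene length. In 96 h spheroids Jund averaged 92.8 ± 6.56 FPKM and Junb 78.7 ± 8.64 FPKM (SD, n = 3), with overlapping libraries. Below them, without overlap between neighbours, came Ier2 (50.5 FPKM), Egr1 (39.2), Jun (32.3), Fosl2 (27.9), Fos (17.5), Fosl1 (13.2), Atf3 (10.3) and Fosb (0.783). In 96 h monolayers Junb led at 103 ± 3.67 FPKM, followed by Jund (70.6 FPKM) and Jun (67.5), whose libraries overlapped, by Ier2 (44.7) and Fosl2 (38.4), which also overlapped, and by Egr1 (31.3), Atf3 (19.2), Fosl1 (16.6), Fos (10.3) and Fosb (1.68). In 48 h spheroids Junb (96.7 FPKM) and Jund (84.6) overlapped, as did each neighbour pair among Fosl2 (46.4), Ier2 (44.4) and Fosl1 (39.6), and among Jun (31.2), Fos (30.4) and Egr1 (26.1). Atf3 (9.84 FPKM) and Fosb (1.15) came last there. In 48 h monolayers Junb (123 FPKM) and Jund (72.6) stood apart. Neighbours overlapped among Fosl2 (44.6), Ier2 (37.0) and Jun (36.8), and again among Fos (15.8), Fosl1 (15.6), Egr1 (15.2) and Atf3 (15.003), with Fosb (4.05) last. Junb and Jund had the highest means and Fosb the lowest in each group, with Jund above Junb in 96 h spheroids only.

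The share of each gene in its family was taken per library, and shares did not always follow levels. In spheroids Fos and Fosl2 fell with time, while their mean shares were larger at 96 h. The Fosl1 shares of the formats overlapped at 96 h, although its CPM levels did not. Fosl1 made up 22.1% ± 0.916 of the summed Fos family FPKM in 96 h spheroids and 24.9% ± 2.21 in 96 h monolayers, and 33.7% ± 1.08 in 48 h spheroids and 19.5% ± 0.622 in 48 h monolayers (SD, n = 3 each). Fos made up 29.5% in 96 h spheroids and 15.4% in 96 h monolayers, and 25.8% in 48 h spheroids and 19.8% in 48 h monolayers. Fosl2 held the largest share in each group, at 47.0% in 96 h spheroids and 57.2% in 96 h monolayers, and at 39.5% in 48 h spheroids and 55.6% in 48 h monolayers. The summed Fos family level was 59.4 ± 0.648 FPKM in 96 h spheroids and 67.0 ± 2.27 FPKM in 96 h monolayers, and 117 ± 3.78 FPKM in 48 h spheroids and 80.1 ± 7.70 FPKM in 48 h monolayers. The family sum was therefore highest in 48 h spheroids, where Fos and Fosl1 were highest.

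In the Jun family, Jun made up 15.9% ± 1.62 of the summed FPKM in 96 h spheroids and 27.98% ± 2.37 in 96 h monolayers, and 14.7% ± 0.386 in 48 h spheroids and 15.8% ± 0.843 in 48 h monolayers (SD, n = 3 each). Jund held 45.5% in 96 h spheroids and 29.4% in 96 h monolayers, and 39.8% in 48 h spheroids and 31.1% in 48 h monolayers. The summed Jun family level was 204 ± 14.01 FPKM in 96 h spheroids and 241 ± 7.19 FPKM in 96 h monolayers, and 212 ± 16.1 FPKM in 48 h spheroids and 233 ± 19.6 FPKM in 48 h monolayers. These shares and sums are descriptions with no test of their own. No TMM factors were applied to the FPKM. This bears on sums set side by side between groups, and not on shares within a library.

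**Figure D3:**
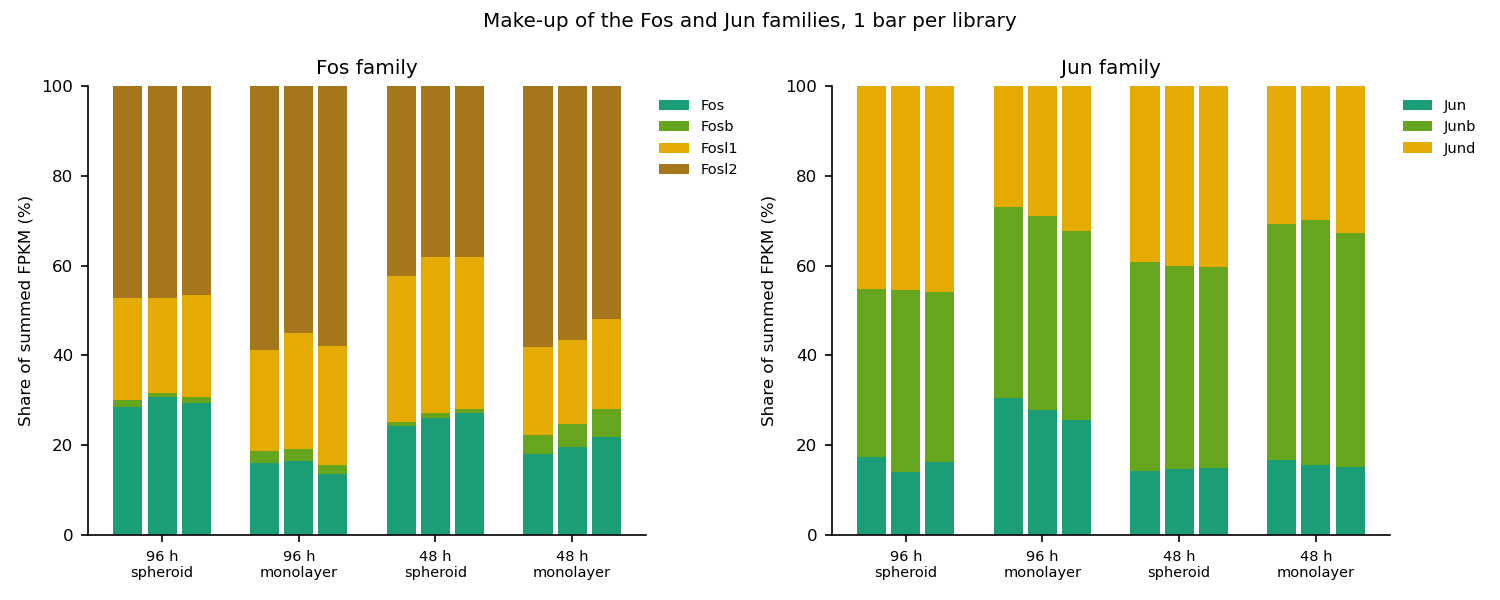
Share of each gene in the summed FPKM of the Fos family (left) and the Jun family (right), in percent, with 1 bar per library. Fosl1 takes 33.7% of the Fos family in 48 h spheroids and 19.5% to 24.9% in the other groups, and Jun takes 27.98% of the Jun family in 96 h monolayers and 14.7% to 15.9% elsewhere (group means).

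To see which genes ran most like them, log2 CPM was centred for each gene over the 12 libraries, and the root mean square distance to the 12421 other tested genes with a single symbol was taken. Nearest to Fos were Pfas, an enzyme of purine synthesis (0.149), Srm, which makes spermidine (0.157), and Mtmr7, a phosphoinositide phosphatase (0.158). Nearest to Fosl1 were Mmp2, a matrix metalloproteinase (0.149), Fam43a (0.173) and Il1r1, an interleukin 1 receptor (0.200). Nearest to Jun were BC003331 (0.0974), Pgpep1, a peptidase (0.102), and Pskh1, a kinase (0.104). Among the 10 genes the closest pairs were Jund with Ier2 (0.166), Jun with Atf3 (0.216) and Fosl2 with Junb (0.230), and Fos with Fosl1 lay at 0.434. The distances are descriptions over libraries that share 4 groups.

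Genes around AP-1 were read from 7 lists, whose counts stand beside the shares of all tested genes: 37.3% higher and 36.5% lower between formats at 96 h, 31.6% and 26.4% at 48 h, 19.3% and 20.5% with time in spheroids, and 30.1% and 31.3% with time in monolayers. Of 34 further immediate early genes tested, 13 rose and 15 fell in spheroids at 96 h and 15 rose and 14 fell at 48 h (median log2 fold change -0.08 at 96 h and 0.00 at 48 h). At 96 h these shares were near those of all tested genes. Nr4a1, an orphan nuclear receptor, was at 31.5 ± 2.37 CPM in 96 h spheroids and 7.67 ± 0.812 CPM in 96 h monolayers, 4.13-fold higher. Plk2, a kinase induced by serum, was lower in spheroids by log2 fold changes of -1.69 at 96 h and -1.59 at 48 h, as were Ccn2 (-3.78 at 96 h and -4.88 at 48 h) and Ccn1 (-2.96 at 48 h), secreted matrix-associated proteins. With time these genes fell more often than they rose, 19 against 3 in spheroids and 20 against 6 in monolayers (medians -0.33 and -0.46). Egr2, a relative of Egr1, fell by 1.56 on the log2 scale in spheroids, in which Egr1 rose. Rhob, a small GTPase, fell by 1.21 there, and Ccn1 and Csrnp1 fell by 1.73 and 1.39 in monolayers.

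Among the 11 tested feedback inhibitors of ERK signalling, none rose and 10 fell in spheroids at 96 h (median -1.05, beside 0.00 over all tested genes), and 4 rose and 6 fell at 48 h (median -0.23). Dusp1, a phosphatase that inactivates MAP kinases, was at 8.57 ± 1.54 CPM in 96 h spheroids and 50.7 ± 5.43 CPM in 96 h monolayers, 5.93-fold lower, and Spred3 (7.86-fold) and Spred2 (2.45-fold), inhibitors of Ras to Raf signalling, were lower too. At 48 h Spry1, another such inhibitor, was 3.80-fold lower, Spred3 3.21-fold and Dusp1 1.89-fold. With time 8 rose and 1 fell in monolayers, led by Spry2 (log2 change 1.39) and Dusp6 (1.36), and 2 rose and 4 fell in spheroids, where Dusp1 fell by 1.40 and Dusp6 rose by 0.84. Of the 9 tested EGF receptor and ligand genes, 5 rose and 3 fell in spheroids at 96 h (median 0.25) and 6 rose and 2 fell at 48 h (median 1.12).

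The ligand Areg (amphiregulin), which acts in mammary duct growth, was at 135 ± 4.05 CPM in 48 h spheroids and 37.7 ± 5.07 CPM in 48 h monolayers, 3.57-fold higher, and Epgn (epigen) was 8.18-fold higher there. Hbegf, another ligand, was 4.15-fold lower in spheroids at 96 h and 4.86-fold lower at 48 h. At 96 h Erbb2 was 2.92-fold higher and Egfr 2.36-fold lower in spheroids, both receptors. With time 1 of these 9 genes rose and 6 fell in spheroids, with Ereg and Areg lower by log2 changes of -1.62 and -1.61, and 2 rose and 4 fell in monolayers, with Btc (1.55) and Epgn (1.03) higher. Ereg and Btc are ligands too.

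Of the 22 tested MAP kinase and serum response genes, 8 rose and 7 fell in spheroids at 96 h and 8 rose and 8 fell at 48 h (medians 0.03 and 0.02). Elk3, a partner of serum response factor, fell by 1.53 at 96 h and by 1.51 at 48 h on the log2 scale. Rps6ka1, a kinase activated by ERK, rose by 1.18 and 1.22, and Map2k1, which activates ERK, fell by 1.02 and 1.04. With time 1 rose and 2 fell in spheroids (Mapk3, an ERK kinase gene, 0.29 and Map2k1 -0.37 among them) and 3 rose and 7 fell in monolayers (Elk4 0.50 among them). Of the 13 tested AP-1 partner factors, 2 rose and 5 fell in spheroids at 96 h and 3 rose and 3 fell at 48 h (median -0.11 at each time). Maf was 3.46-fold lower at 96 h, where Crem was 1.43-fold and Jdp2, a repressor that pairs with Jun proteins, 1.24-fold lower. At 48 h Jdp2 was 1.81-fold lower and Maf 1.35-fold lower. With time 3 rose and 1 fell in spheroids (Jdp2 0.40, Maf -1.24), and 3 rose and none fell in monolayers (Crem 0.49, Atf7 0.40). Without replicate 3 of the 48 h monolayers, Atf7 was at 0.18 with time in monolayers (adjusted p = 0.154 by edgeR) and Maf at -0.32 at 48 h (adjusted p = 0.0511), and both calls were lost. These counts depended on the scaling: with total-count scaling 9 of the AP-1 partners rose with time in monolayers, and 9 of the MAP kinase and serum response genes rose and 2 fell. Of the AP-1 partners higher at 48 h, 1 was left without replicate 1 or replicate 3 of the 48 h spheroids, and of those lower at 96 h, 3 were left without replicate 3 of the 96 h spheroids.

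The list of genes known from other work as AP-1 targets had 23 tested members, of which 2 rose and 19 fell in spheroids at 96 h (median -1.49) and 3 rose and 16 fell at 48 h (median -0.65). Mmp13, a collagenase gene with a TRE in its promoter, was at 3.25 ± 0.248 CPM in 96 h spheroids and 51.9 ± 12.9 CPM in 96 h monolayers, 16.01-fold lower. The gelatinase gene Mmp9 stood at 1.70 ± 0.478 CPM in 96 h spheroids and 72.5 ± 11.4 CPM in 96 h monolayers, 42.2-fold lower, and Hmox1, a heme oxygenase, was 7.84-fold lower. At 48 h Mmp9 was 23.3-fold lower and Spp1 (osteopontin) 5.53-fold higher. With time 2 rose and 17 fell in spheroids (Mmp9 -3.05 on the log2 scale), and 4 rose and 13 fell in monolayers, where Spp1 (3.97) and Hmox1 (2.54) rose. Markers of other cell types moved the same way between formats at 96 h, where 6 of 8 fibroblast and 6 of 6 endothelial markers fell in spheroids (medians -1.59 and -3.32). With time in spheroids 8 of 8 fibroblast and 6 of 6 endothelial markers fell (medians -1.52 and -2.29). In the interaction 5 of 6 endothelial markers were negative (median -2.93), but 4 fibroblast markers were positive and 3 negative (median 0.29). The part of these markers in the target counts was not tested. In the interaction 4 AP-1 targets were positive and 14 negative, and among ERK feedback inhibitors 1 was positive and 9 negative, beside 26.9% and 26.4% over all tested genes.

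**Figure D4:**
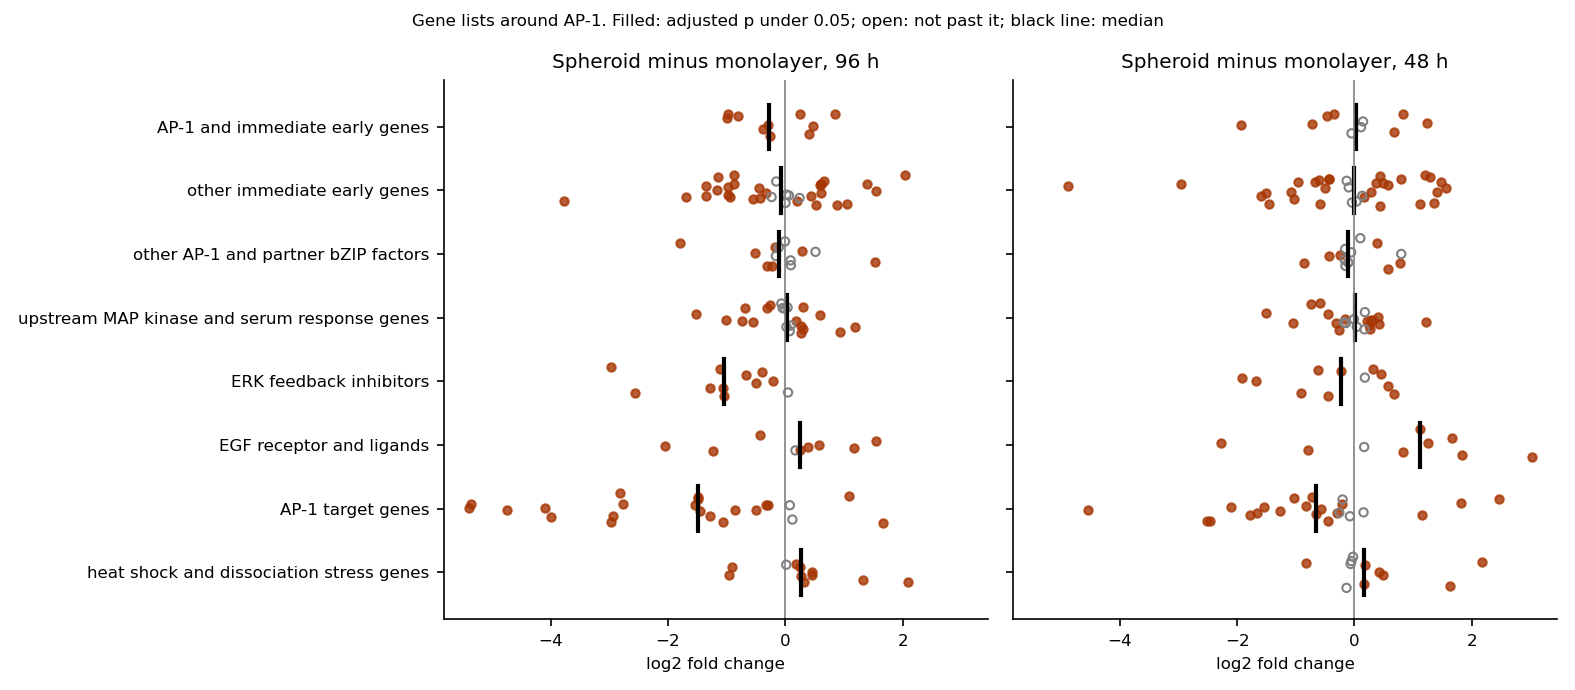
Log2 fold changes, spheroid minus monolayer, of the tested genes of each list at 96 h (left) and 48 h (right), filled where the adjusted p was under 0.05, with the median as a black line. The AP-1 target median lies at -1.49 at 96 h and -0.65 at 48 h, and that of the ERK feedback inhibitors at -1.05 and -0.23.

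Heat shock genes, which are known to rise together with Fos and Jun when tissue is dissociated, were read for the same libraries. Of the 11 tested, 8 rose and 2 fell in spheroids at 96 h (median 0.27) and 6 rose and 1 fell at 48 h (median 0.16). With total-count or upper-quartile scaling 5 rose at 96 h. Hspa1b was at 237 ± 3.32 CPM in 96 h spheroids and 55.1 ± 8.09 CPM in 96 h monolayers, 4.27-fold higher, and 4.49-fold higher in spheroids at 48 h. Its near-identical copy Hspa1a was 2.50-fold higher at 96 h and 3.10-fold higher at 48 h, and the split of reads between the copies is uncertain. Hsph1, a co-chaperone, was 1.95-fold lower in spheroids at 96 h, and the small chaperone gene Hspb1 was 1.77-fold lower at 48 h. With time 1 rose and 3 fell in spheroids (Hspa1b 0.46, Hspb1 -0.89) and 2 rose and 4 fell in monolayers (Hsph1 0.75, Hspb1 -0.80). Between formats, Fos and Egr1 rose in spheroids at each time and Fosb, Jun, Junb and Atf3 fell. At 96 h Jund and Ier2 rose too and Fosl1 and Fosl2 fell, while at 48 h Fosl1 rose. The part of the heat shock genes in these results was not tested.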

How the data were processed

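RNA was measured in 12 mRNA libraries (Illumina TruSeq). Per the submitters' processing notes, the genome was mm9 and the tools were RSEM 1.2.30, Bowtie 1.0.1 and bcl2fastq 2.15.0. Whether counting used strand is not stated in those notes. What the authors deposited are expected counts per gene of the UCSC known gene models, rounded to whole numbers, and log2 values of FPKM plus 1, with a table of symbols. Of 28427 rows, 2093 carry several symbols. Rounding leaves 338 counts of 0 beside an FPKM above 0.

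Counts were tested with edgeR 4.0.16 in R 4.3.3: filterByExpr (minimum count 10, minimum total 15), TMM factors of 0.923 to 1.07, and a quasi-likelihood model on group over all 12 libraries with 5 contrasts, 2-sided, adjusted by Benjamini-Hochberg over 13951 genes. The common dispersion was 0.00501. The SE is the log2 fold change divided by the square root of F. Library totals and count floors cover counting error only. FPKM was computed as 2 to the power of the deposited value, less 1. Alternatives used other scalings, filters, DESeq2 1.42.0, limma 3.58.1, a replicate block and each library left out.

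The genes and lists were chosen with earlier results of these data known. Of the 156 list entries (7 pathway lists, 4 marker lists) all had a row, 4 under an older symbol: Ccn1 as Cyr61, Ccn2 as Ctgf, Hras as Hras1 and Adgre1 as Emr1. The pathway genes Egr4, Batf2, Dusp2, Egf and Fasl and 4 immune markers, among them Ptprc, Adgre1 and Cd3e, did not pass the filter. Named from each list were the 3 genes (2 in time contrasts) with the largest called change and a mean log2 CPM of at least 3. Some genes that this rule names are not reported here.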

Additional observations from a re-analysis of the deposited data

Results flagged for a closer look

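The format change at 96 h differed from that at 48 h for 5 of the 10 genes by edgeR's interaction test, with Benjamini-Hochberg adjustment. The interaction (spheroid minus monolayer at 96 h, less the same at 48 h, on the log2 scale) was 0.94 for Fosb (adjusted p = 0.0151), -1.49 for Fosl1 (adjusted p = 9.56e-09), -0.33 for Fosl2 (adjusted p = 0.0172), -0.64 for Jun (adjusted p = 0.000148) and 0.36 for Jund (adjusted p = 0.0283). Over all tested genes 53.3% passed this test.

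The list genes with the largest called interactions were as follows. Among immediate early genes, Socs3 stood at -1.90, Ccn1 at 1.60 and Btg1 at -1.12. Socs3, an inhibitor of cytokine signalling, averaged 17.8 CPM in 96 h spheroids and 23.7 CPM in 96 h monolayers, and 28.2 CPM in 48 h spheroids and 10.2 CPM in 48 h monolayers. Among AP-1 partners, Maf stood at -1.36 and Jdp2 at 0.54, and among kinases and serum response genes Mapk9 at -0.57, Mapk3 at 0.52 and Elk4 at -0.51. ERK feedback inhibitors had Dusp1 at -1.65, Spry2 at -1.51 and Spred3 at -1.29. The ligands Epgn (-2.46), Btc (-2.10) and Areg (-1.59) each had a larger spheroid over monolayer ratio at 48 h. AP-1 targets had Mmp13 at -4.15, Hmox1 at -4.13 and Spp1 at -4.01. Spp1 averaged 1853 CPM in 96 h spheroids and 5388 CPM in 96 h monolayers, and 1902 CPM in 48 h spheroids and 344 CPM in 48 h monolayers, so its format change turned round. Heat shock genes had Hsph1 at -1.14, Dnaja1 at 0.39 and Hspa8 at 0.37.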

How the results depend on the processing

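The counts of genes and of AP-1 and immediate early genes called stayed within 1.5 times under every alternative run (8 to 10 of the 10 at 96 h and 7 to 9 at 48 h between formats, 4 to 5 in spheroids and 6 to 8 in monolayers with time, 4 to 6 for the interaction). Of 34 called results for single genes, 28 were called under every alternative and none reversed. Of 16 that did not pass, 7 passed under some alternative. Libraries with the same replicate number showed no clear shared deviation (correlations of deviations from -0.121 to 0.0762 over 18 pairs). With 3 libraries per group this cannot show that they were unpaired. With the replicate block 10287 genes were called at 96 h and 8110 at 48 h between formats, 5501 in spheroids and 8537 in monolayers with time, and 7417 for the interaction. The block ended the call of Atf3 with time in monolayers (0.19) and made that of Jund (-0.21, adjusted p = 0.0368 by edgeR).

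Signs turned for results that had not passed. For total-count scaling and for limma on log2(FPKM + 1), Fosl2 at 48 h was 0.0573 and 0.0623, and it ran from -0.13 to 0.0525 with a library left out. Fosl1 with time in monolayers was 0.0921 with total-count scaling and 0.0897 with limma. The interaction of Fos was -0.17 and -0.18 with these, -0.0606 with upper-quartile scaling, -0.0442 with the stricter filter, and -0.0683 to 0.0850 with a library left out. The Junb interaction was -0.0292 with total-count scaling and -0.0344 with limma, and that of Ier2 was -0.0795 and -0.0754, or -0.0212 to 0.26 with a library left out. Total-count scaling moved the median of all genes by 0.11 at 48 h, 0.17 with time in monolayers and -0.19 for the interaction, with 65.1%, 66.2% and 34.2% of called genes positive, beside 54.5%, 49.0% and 50.5% under TMM. The cause was not tested.

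On CPM, which ignores gene length, Fosl1 made up 9.78% of the Fos family in 96 h spheroids and 9.95% in 96 h monolayers, and 16.3% in 48 h spheroids and 7.78% in 48 h monolayers. Jun made up 20.2% of its family in 96 h spheroids and 35.7% in 96 h monolayers, and 19.3% in 48 h spheroids and 21.5% in 48 h monolayers. Of 86 named results of list genes, 82 passed under every alternative. The others were Maf at 48 h and Atf7 with time in monolayers, each lost with some library left out, and Dnaja1 and Hspa8 in the interaction, lost with total-count scaling and limma. Small list counts moved by over 1.5 times under several alternatives, and under total-count scaling and limma so did those of further immediate early genes higher with time in monolayers (10 with each, beside 6) and AP-1 targets higher there (7 with each, beside 4). Fosb, with 28 counts in its lowest library, is the gene most limited by depth.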
